A study of Mus musculus with 6 samples.

Results

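The genes described here encode the constitutive proteasome and its regulators. They were taken by symbol from the count table: every symbol that starts with Psma, Psmb, Psmc, Psmd, Psme, Psmf or Psmg and a number, without the immunoproteasome genes Psmb8, Psmb9 and Psmb10. The rule found 51 of 52997 symbols, of which 45 passed the filter on low counts. Of the 51, 43 are known subunits or regulators, 4 are annotated as pseudogenes, Psmc3ip encodes a recombination protein and no proteasome subunit, Psme2b is a near copy of Psme2, and Psma8 and Psmb11 encode subunits of special tissues. RNA of CD4+ T cells from pooled lymph nodes was compared between infants of 10 days (3 mice) and adults of 7 weeks (3 mice). All mice were Foxp3-GFP animals of the C57BL/6 strain, which carry a reporter of the regulatory T cell factor Foxp3. The titles call the cells Tconv and the series calls them naive, each replicate is 1 mouse, and each library holds 1000 sorted cells. The labels name no treatment for either group and do not give the markers of the sort. In such bulk samples fewer cells of a type and less RNA per cell cannot be told apart.

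The proteasome is the protease of the cytosol and nucleus that destroys proteins marked with ubiquitin. Its core particle is a barrel of stacked rings, with alpha subunits forming the gated outer rings and beta subunits forming the inner rings, in which Psmb5, Psmb6 and Psmb7 carry the active sites. A regulatory cap of ATPases (Psmc genes) and non-ATPases (Psmd genes) binds, trims and unfolds the substrates. Activators (Psme genes) open the gate without ubiquitin, and dedicated chaperones (Psmg genes) assemble the barrel. In lymphocytes the active beta subunits are partly replaced by the interferon-inducible Psmb9, Psmb10 and Psmb8, which favour the making of peptides for MHC class I.

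Library totals ran from 3421253 to 4887371 counts. Adult replicate 2 stood apart: 36373 symbols had a count there, and 17992 to 21840 in each of the remaining 5. The T cell identity list (10 of 10 genes tested, 0 called) summed to 8034 to 9262 CPM (counts scaled to a common library size with TMM factors) in adult and 8602 to 9168 in infant libraries. Of the other-cell lists, the natural killer list (5 genes, 1 tested and lower in infants) summed to 14.3 to 30.7 CPM in adult and 7.33 to 9.92 in infant libraries. Most of it was the tested gene Klrd1, at 24.2, 21.6 and 13.2 CPM in adults and 6.91, 8.71 and 7.73 in infants. The 30.7 came from adult replicate 2, where Klrb1c had 18 counts and Nkg7 had 12. Gzma had 0 to 2 counts in adult and 1 to 5 in infant libraries, and Ncr1 was at 0 in all 6. The regulatory T cell list (5 of 5 genes tested, 0 called) summed to 111 to 130 against 89.0 to 96.1 CPM, most of it Tnfrsf18. Foxp3 itself went the other way, at 6.06, 6.25 and 4.49 CPM in adults and 7.12, 6.53 and 9.18 in infants. The log2 fold changes (infant over adult) were −0.55 for Tnfrsf18, −0.52 for Ctla4, −0.042 for Il2ra, 0.45 for Foxp3 and 0.55 for Ikzf2. The B cell list (8 genes, 3 tested, 0 called) summed to 711 to 837 and 673 to 804 CPM, nearly all of it Ighm. The CD8, myeloid, dendritic, erythroid and stroma lists held 0 called genes and their sums overlapped between the ages. The part of these cells in the proteasome values was not tested.

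No proteasome gene passed the threshold between the ages, an adjusted p under 0.05. By edgeR's quasi-likelihood F test, adjusted after Benjamini and Hochberg over all 11681 tested genes, 0 of 45 were called, while 425 of all genes (3.64%) were, 178 (1.52%) higher and 247 (2.11%) lower in infants. The count of members was also 0 with DESeq2 and with limma-voom. The values nevertheless leaned to one side. They come from the same libraries and are not independent observations, and the lean itself was not tested. Of the 45, 36 (80%) had a log2 fold change (infant over adult) above 0, against 49.7% of all tested genes, with 35 of them between 0 and 0.3 (31.4% of all tested genes). Their median was 0.14 (1.10-fold) against −0.0017 over all tested genes. An unadjusted p under 0.05 was found for 7 of the 45, all higher in infants, while 17.3% of all tested genes reached that p in either direction and 8.25% of all tested genes with a higher infant level. With DESeq2 and limma-voom 5 members each had an unadjusted p under 0.05. The share of all tested genes at that p was not worked out for these tests. The 3 infant values lay wholly above the 3 adult values in 11 of 45 members (11.2% of all tested genes) and wholly below them in 2 (11.6%), so that 13 of 45 did not overlap in either direction (22.8%). The differences were small: the 95% interval lay within 1.5-fold in either direction for 38 of 45 members and within 2-fold for 42. Of all 11681 tested genes, 4215 and 7668 had intervals within these limits. In none of these comparisons were the other genes matched to the members for level, on which the width of an interval depends.

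**Figure D1:**
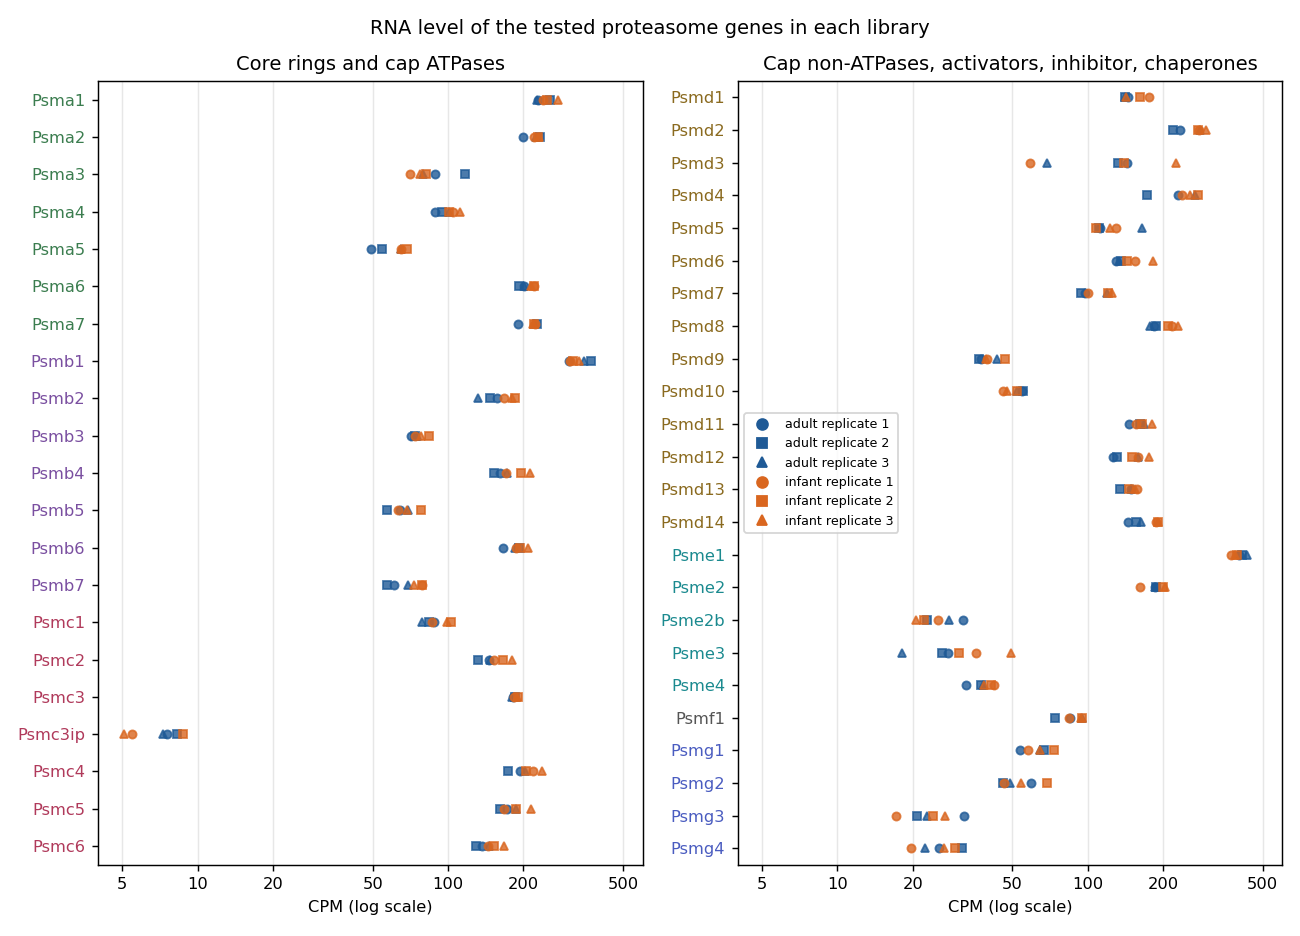
RNA level of the 45 tested genes in CPM (log axis), with 1 symbol per library and the gene names coloured by class. Adult and infant symbols lie close together for most genes. Psme3 and Psmd3 show the widest spread among the proteasome genes, and Psmc3ip has the lowest level, near 7 CPM.

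**Figure D2:**
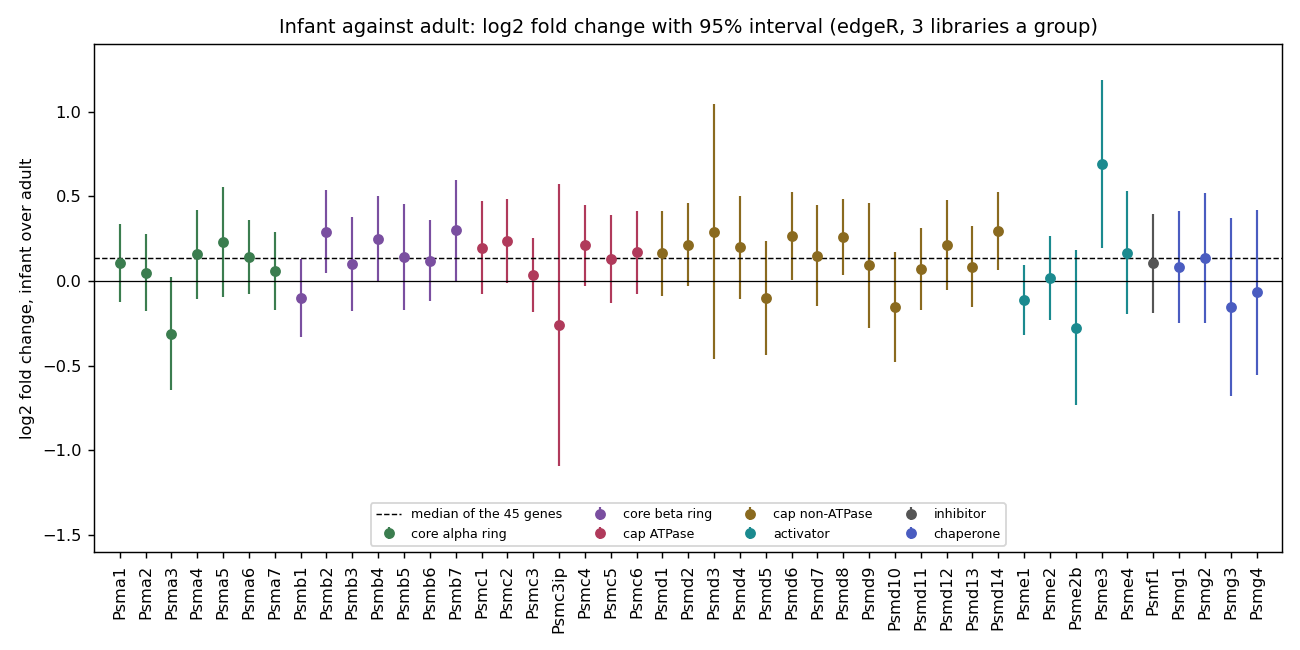
Log2 fold change of infant over adult with its 95% interval from the edgeR fit (3 libraries a group), ordered and coloured by class. The dashed line is the median of the 45 genes, 0.14. The intervals of Psme3, Psmb2, Psmb4, Psmb7, Psmd6, Psmd8 and Psmd14 lie above 0 before any adjustment, and none of the 45 genes passed it.

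In the alpha ring, the gated outer rings of the barrel, 0 of 7 tested genes passed and 6 lay above 0 (median log2 fold change 0.11). Psma6 stood at 202, 192 and 200 CPM in adults and at 220, 221 and 215 CPM in infants. These values do not overlap, yet the difference is small (log2 fold change 0.14 ± 0.10, SE, edgeR adjusted p = 0.525). Psma4 was likewise higher in every infant library, with 89.0, 94.9 and 100.6 against 104, 101.3 and 112 CPM (0.16 ± 0.12). Psma5 stood at 49.2, 54.5 and 64.7 CPM in adults and at 64.9, 68.4 and 64.7 CPM in infants (0.23 ± 0.15, adjusted p = 0.485), with adult replicate 3 level with the infants. Psma3 was the lone alpha gene below 0. It stood at 89.0, 117 and 79.3 CPM in adults and at 70.8, 81.5 and 77.0 CPM in infants (−0.31 ± 0.15, adjusted p = 0.334), and the groups overlapped. Its 117 came from adult replicate 2, without which the log2 fold change was −0.14. Psma1 (237 CPM on average in adults and 255 in infants), Psma2 (220 and 227) and Psma7 (212 and 221) had log2 fold changes of 0.11, 0.049 and 0.058. Psma8, the alpha subunit of male germ cells, was too low to test, with 0 to 4 counts per library.

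In the beta ring 0 of 7 tested genes passed and 6 lay above 0 (median 0.14), among them all 3 constitutive active subunits. Psmb2, a structural beta subunit on chromosome 4 (126677630 to 126709714, mm10), stood at 156, 147 and 132 CPM in adults and at 168, 185 and 179 CPM in infants. All infant values lay above all adult values (log2 fold change 0.29 ± 0.11, edgeR adjusted p = 0.196). Psmb4, another structural subunit, had 161, 153 and 172 against 171, 195 and 213 CPM, with infant replicate 1 just under adult replicate 3 (0.25 ± 0.12, adjusted p = 0.288). Psmb7, which carries the trypsin-like site, stood at 60.6, 57.1 and 69.4 CPM in adults and at 78.5, 78.8 and 73.2 CPM in infants. Its groups did not overlap (0.30 ± 0.14, adjusted p = 0.287). Psmb6, which carries the caspase-like site, had 165, 192 and 185 against 187, 194 and 209 CPM (0.12 ± 0.11, adjusted p = 0.635), and Psmb5, which carries the chymotrypsin-like site, had 64.2, 56.8 and 69.0 against 63.0, 78.1 and 68.8 CPM (0.14 ± 0.15, adjusted p = 0.689). The groups of both overlapped. Psmb3, a structural subunit, averaged 73.2 and 78.5 CPM in adults and infants (0.10 ± 0.13). Psmb1 was the beta gene below 0, at −0.10 ± 0.11, with 304 to 373 CPM in adult and 307 to 334 in infant libraries.

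Of the beta group 5 further symbols were too low to test. Psmb11, the subunit of the cortical epithelium of the thymus, had 30 counts in adult replicate 2, 1 in infant replicate 2 and 0 in the other 4 libraries. Adult replicate 2 is the library with counts over many otherwise silent genes. The pseudogenes Psmb5-ps, Psmb6-ps, Psmb6-ps2 and Psmb7-ps2 had at most 4 counts in any library.

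Promoters are shown for 2 active subunits because they hold a match to the antioxidant response element, the motif bound by the factors Nfe2l1 and Nfe2l2, which are known to control proteasome genes, and for Psme3 because it had the largest difference. Each stretch is 120 bases directly before the start site, on the strand of the gene, from RefSeq on GRCm38.p6, with the match in capitals: Psmb5 at chr14:54617996-54618115 (minus strand), Psmb6 at chr11:70525237-70525356 (plus strand) and Psme3 at chr11:101316093-101316212 (plus strand).
Psmb5: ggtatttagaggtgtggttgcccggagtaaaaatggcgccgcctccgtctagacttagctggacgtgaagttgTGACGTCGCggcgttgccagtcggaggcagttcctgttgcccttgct
Psmb6: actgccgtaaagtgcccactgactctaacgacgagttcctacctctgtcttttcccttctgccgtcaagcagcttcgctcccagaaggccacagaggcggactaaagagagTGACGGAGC
Psme3: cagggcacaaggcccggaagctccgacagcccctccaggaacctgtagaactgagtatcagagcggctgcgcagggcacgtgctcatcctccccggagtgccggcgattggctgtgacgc
Psme3 holds no match and so no capitals. The letters searched were TGACNNNGC on both strands, over 300 bases (250 before to 50 after the start). They occurred in 6 of the 39 members that have a promoter in the table (15.4%), against 12.4% of all 32851 promoters. The 6 were Psmb5, Psmb6, Psmc6, Psmd9, Psmd12 and Psme4. The interferon-stimulated response element, searched as GAAA, any pair of bases and GAAA on both strands, occurred in 5 of 39 (12.8%: Psmb3, Psmd4, Psmd9, Psme1 and Psmg4), against 3.44% of all promoters. For both motifs the members were counted by gene, with a match in any of their 42 promoters. The background was counted by promoter, so the paired percentages differ in unit. Such matches are descriptions of letters, not binding sites.

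At each catalytic position the RNA of the constitutive subunit was set against that of its immunoproteasome counterpart, as counts per length of the longest principal transcript. Psmb6 made up 45.7%, 50.4% and 50.1% of the Psmb6 and Psmb9 pair in adults and 57.9%, 54.7% and 59.8% in infants. All infant shares lay above all adult shares (log2 ratio higher by 0.51 in infants, p = 0.1 in a two-sided exact permutation test, which is as low as 3 against 3 can go, and 0.15 adjusted over the 3 pairs). Psmb7 made up 25.1%, 24.6% and 27.2% of its pair with Psmb10 in adult and 33.1%, 30.5% and 28.6% in infant libraries, again without overlap (log2 ratio higher by 0.36, exact permutation p = 0.1, adjusted 0.15). Psmb5 made up 12.3%, 11.9% and 13.5% of its pair with Psmb8 in adult and 12.9%, 14.8% and 12.9% in infant libraries, where the groups overlapped (difference 0.12, exact permutation p = 0.3). In the first pair the immunoproteasome gene had the larger log2 fold change in size. Psmb9 stood at 333, 320 and 313 CPM in adults and at 230, 273 and 238 CPM in infants (log2 fold change −0.38 ± 0.11, edgeR adjusted p = 0.0635), without overlap. Its adjusted p passed in 3 alternatives, at 0.0186 with DESeq2, 0.0499 with limma-voom and 0.0468 with a stricter filter, and was at most 0.499 in the others. Psmb10 and Psmb8 were at −0.058 ± 0.11 and 0.024 ± 0.093. Psmb5 shares 76.7% of its 25-base words with other annotated genes, so its share is less certain. The shares depend on the transcript length used. With the length of all exons the mean shares were 52.3% and 60.9% for Psmb6, 13.2% and 16.4% for Psmb7 and 23.0% and 24.5% for Psmb5 in adult and infant libraries, while the differences in log2 ratio do not depend on length.

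**Figure D3:**
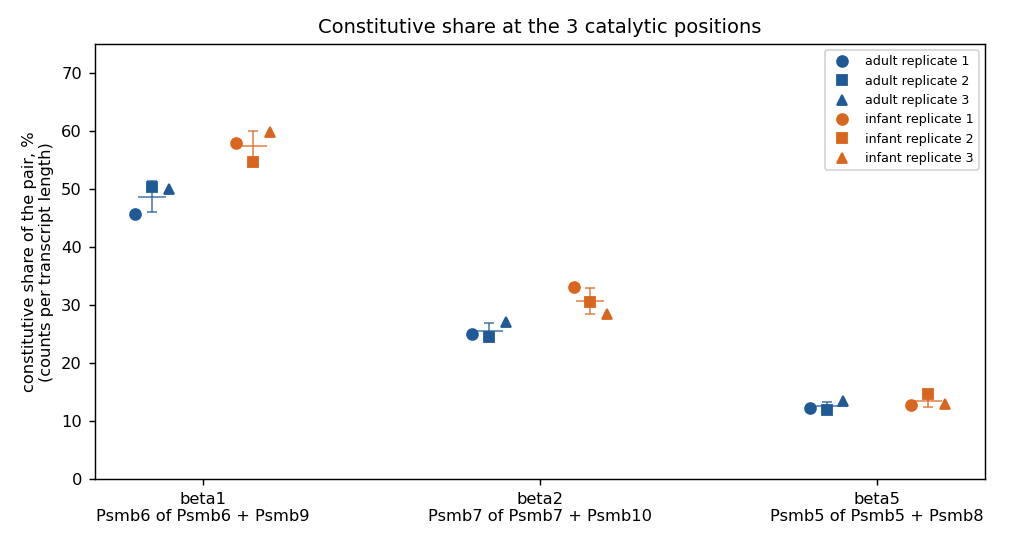
Share of the constitutive subunit in each catalytic pair (percent of counts per transcript length), with 1 symbol per library and bars for the mean ± SD of 3 libraries. Infant shares lie above adult shares at the Psmb6 and Psmb7 positions and overlap with them at the Psmb5 position.

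The ATPases of the cap, which unfold the substrate, were all above 0 in infants: 6 of 6 subunits, from 0.037 for Psmc3 to 0.23 for Psmc2 (median 0.18), with 0 passing. Psmc2 stood at 145, 132 and 148 CPM in adults and at 153, 166 and 180 CPM in infants. Psmc4 had 194, 174 and 204 against 219, 206 and 238 CPM. Neither gene's groups overlapped, and both missed the threshold (log2 fold change 0.23 ± 0.12 and 0.21 ± 0.11, edgeR adjusted p = 0.326 and 0.367). Psmc1 had 87.8, 84.1 and 79.1 against 86.5, 103 and 98.8 CPM (0.20 ± 0.13, adjusted p = 0.488), and Psmc5 (173 CPM on average in adults and 190 in infants) and Psmc6 (137 and 155) were at 0.13 ± 0.12 and 0.17 ± 0.12. Psmc3 varied least of the tested members, at 180 to 186 CPM in adult and 183 to 191 in infant libraries. Psmc3ip, which shares only the start of its symbol with this group, had 21 to 36 counts per library and a log2 fold change of −0.26 ± 0.39.

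Among the 14 non-ATPase genes of the cap 12 lay above 0 and none passed (median 0.18). Psmd14, the deubiquitinase that removes the ubiquitin chain, lies on chromosome 2 (61711694 to 61800376). It stood at 145, 156 and 163 CPM in adults and at 187, 192 and 191 CPM in infants. The infant values were tightly grouped and all above the adult ones (log2 fold change 0.30 ± 0.11, 1.23-fold with a 95% interval of 1.05 to 1.44, edgeR adjusted p = 0.162). Psmd8, a lid subunit on chromosome 7 (29174188 to 29180701), had 184, 188 and 177 against 217, 210 and 230 CPM, without overlap (0.26 ± 0.10, adjusted p = 0.206). Psmd6, a lid subunit on chromosome 14 (14112174 to 14120984), had 130, 136 and 133 against 154, 143 and 183 CPM, also without overlap (0.27 ± 0.12, adjusted p = 0.275). The scaffold Psmd2 averaged 245 CPM in adults and 284 in infants (0.21 ± 0.11) and the lid subunit Psmd12 139 and 161 CPM (0.21 ± 0.12). The ubiquitin receptor Psmd4 averaged 224 and 257 CPM (0.20 ± 0.14) and the scaffold Psmd1 142 and 160 CPM (0.17 ± 0.12). The lid subunits Psmd7 (104 and 115 CPM), Psmd13 (144 and 153 CPM) and Psmd11 (159 and 167 CPM) were at 0.15 ± 0.14, 0.084 ± 0.11 and 0.072 ± 0.11.

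The 2 non-ATPase genes below 0 were Psmd5 and Psmd10, which are known as chaperones of cap assembly rather than parts of the finished cap. Psmd10, also called gankyrin, stood at 54.5, 55.4 and 52.3 CPM in adults and at 45.9, 52.2 and 47.8 CPM in infants. All infant values lay below the adult ones, by little (log2 fold change −0.15 ± 0.15, edgeR adjusted p = 0.666). Psmd5 had 112, 111 and 164 against 130, 108 and 123 CPM (−0.10 ± 0.16), and without adult replicate 3, its highest library, the log2 fold change was 0.11. Psmd9, the other cap chaperone, averaged 39.2 and 41.9 CPM (0.092 ± 0.17). With these 3 genes set apart, a split made after their values were seen, 11 of 11 non-ATPase subunits lay above 0 (median 0.21).

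Psmd3, a lid subunit on chromosome 11 (98682554 to 98695979), varied most among the 43 subunits and regulators, with a low library at each age. It stood at 144, 133 and 68.6 CPM in adults and at 58.8, 139 and 224 CPM in infants. Adult replicate 3 and infant replicate 1 were low together and infant replicate 3 was the highest. The log2 fold change was 0.29 ± 0.35 (edgeR adjusted p = 0.740) and turned to −0.22 without infant replicate 3. Its coefficient of variation over the 6 libraries was 46.9%, which 29 of 4445 tested genes of at least 50 CPM reached or passed, Psmd3 included. These low values rest on 321 and 281 counts. Of the tested genes at that level, 28 others followed Psmd3 with a Pearson r of at least 0.95 over the 6 libraries. The closest were Exoc5 (r = 0.996), Dnajb11 (0.994), Vapa (0.990), Usp39 (0.987) and Rrs1 (0.983), a choice made by this measure after the values of Psmd3 were seen. Rrs1 stood at 81.2, 66.5 and 34.4 CPM in adults and at 22.0, 76.9 and 112 CPM in infants. These values share their libraries and scaling, and nothing in the labels gave a batch that groups adult replicate 3 with infant replicate 1.

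**Figure D4:**
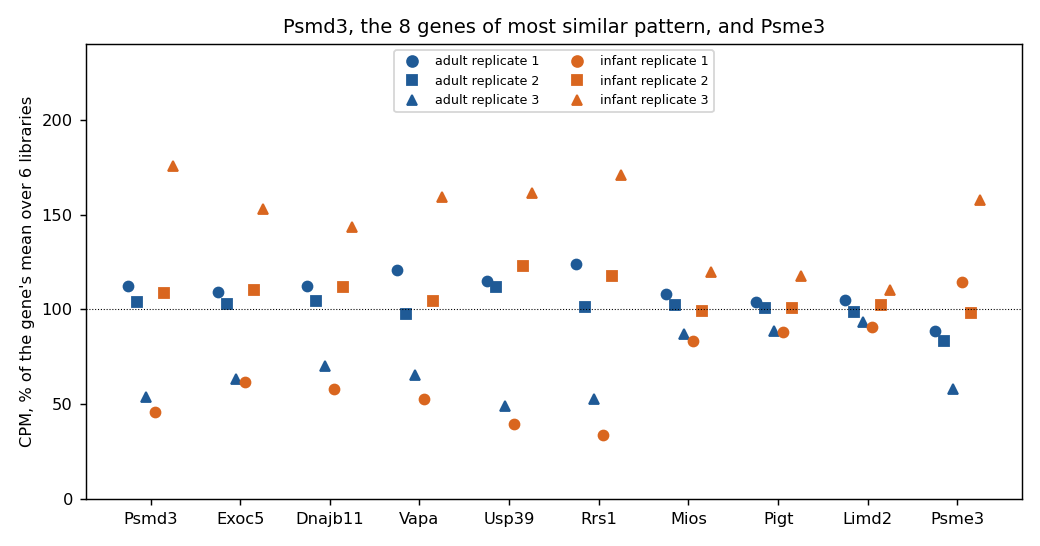
Levels of Psmd3, of the 8 genes with the most similar pattern over the libraries, and of Psme3, as percent of each gene's mean CPM, with 1 symbol per library. For Psmd3 and the 8 genes adult replicate 3 and infant replicate 1 are the lowest and infant replicate 3 the highest, whereas for Psme3 the infant libraries lie above the adult ones.

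The activators lay on both sides of 0 (3 above and 2 below), and none of 5 tested passed. Psme3, the nuclear activator on chromosome 11 (101316213 to 101323537), had the largest difference of all 45 members. Its CPM were 27.6, 26.1 and 18.2 in adults and 35.8, 30.7 and 49.3 in infants, from 85 to 204 counts. All infant values lay above all adult values (log2 fold change 0.69 ± 0.23, 1.61-fold with a 95% interval of 1.14 to 2.28, edgeR adjusted p = 0.129). The size leaned on infant replicate 3 and adult replicate 3, without which the log2 fold change was 0.48 and 0.52. Psme1, the interferon-inducible alpha chain of the cytosolic activator, was the most abundant member in CPM, with 402, 413 and 433 in adult and 374, 394 and 387 in infant libraries. Its infant values all lay below the adult ones (−0.11 ± 0.096, adjusted p = 0.607). Psme2, the beta chain of the same ring, whose gene neighbours Psme1 on chromosome 14, had 186, 188 and 185 against 162, 200 and 204 CPM (0.019 ± 0.12, adjusted p = 0.962). Psme2b, a copy on chromosome 11, averaged 27.5 and 22.7 CPM (−0.28 ± 0.21). It shares 79.5% of its 25-base words with Psme2, so reads of 25 bases may not separate them. Psme4, the large activator of the nucleus, had 32.7, 37.5 and 38.0 against 42.1, 41.1 and 38.4 CPM, higher in all infant libraries (0.17 ± 0.17, adjusted p = 0.677).

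Psmf1, an inhibitor of the core particle, stood at 85.1, 73.9 and 94.6 CPM in adults and at 84.4, 94.8 and 93.9 CPM in infants (log2 fold change 0.10 ± 0.14, edgeR adjusted p = 0.767). The assembly chaperones of the barrel showed no common direction. Psmg1 and Psmg2, which pair with each other, were at 0.081 ± 0.15 and 0.14 ± 0.18, and Psmg3 and Psmg4, the other pair, at −0.15 ± 0.25 and −0.066 ± 0.23. Psmg1 stood at 53.6, 66.8 and 64.5 against 57.6, 73.5 and 64.5 CPM and Psmg2 at 59.2, 46.0 and 48.9 against 46.5, 68.9 and 54.3 CPM. Psmg3 had 32.0, 20.7 and 22.9 against 17.2, 24.2 and 26.8 CPM, and Psmg4 25.5, 31.5 and 22.4 against 19.7, 29.5 and 26.6 CPM. The groups overlapped for all 4. Together with the 3 cap chaperones, 3 of 7 assembly factors lay above 0 (median −0.066). Whether assembly factors differ from the subunits was not tested.

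Summed over the 43 subunits and regulators, the RNA came to 5788, 5864 and 6127 CPM in adults and 6082, 6451 and 6750 in infants. The mean was 1.08 times as high in infants, and infant replicate 1 lay below adult replicate 3. The sum of the 14 cap non-ATPase genes was 1936, 1869 and 2087 in adult and 2098, 2187 and 2368 CPM in infant libraries (1.13 times, and 1.12 times without Psmd3), and that of the 6 ATPases was 918, 866 and 943 against 953, 1005 and 1088 CPM (1.12 times). Neither cap sum overlapped between the ages, but the gaps were narrow. Adult replicate 3 and infant replicate 1 were at 2087 and 2098 CPM for the non-ATPases and at 943 and 953 for the ATPases. The sums were taken with TMM factors only and were not tested. The alpha and beta rings reached 1.05 and 1.08 times the adult mean and the activators 0.985 times, with overlap in each.

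**Figure D5:**
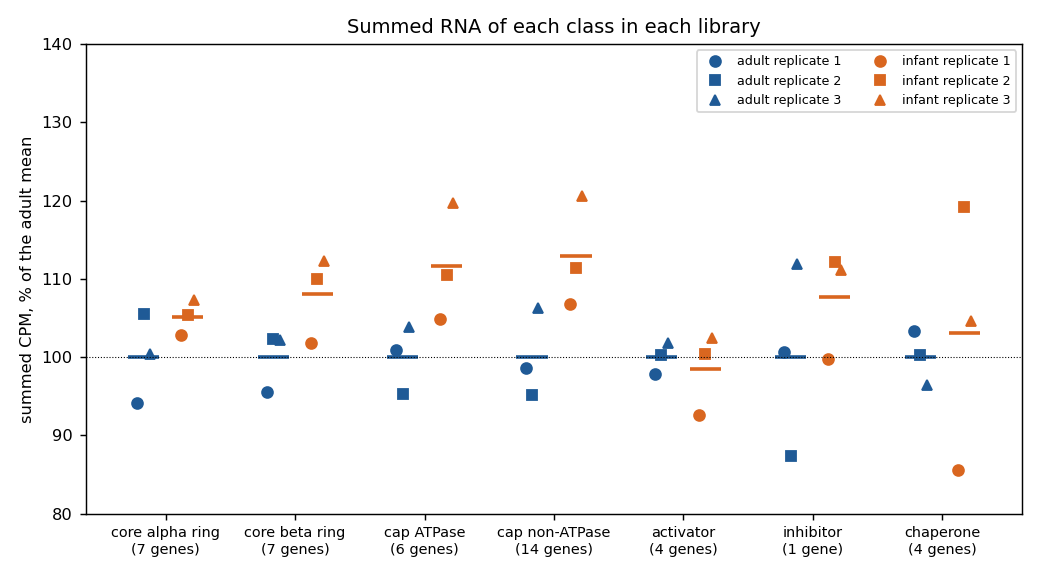
Summed CPM of each class in each library as percent of the adult mean, with short lines at the group means. Infant libraries lie above adult ones for both cap classes, by 1.12 and 1.13 times on average, and overlap with them in the other classes. In both cap classes adult replicate 3 lies only just below infant replicate 1. The y axis starts at 80%.

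Subunits that sit in equal number in the particle differed widely in RNA level, and the order was nearly the same at both ages. Per length of the principal transcript the adult alpha ring ranged from 33.4 ± 6.84 CPM per kb (mean ± SD, n = 3) for Psma3 to 232 ± 21.3 for Psma7, a ratio of 6.95, and the adult beta ring from 53.8 ± 5.48 for Psmb7 to 227 ± 17.4 for Psmb6 (4.21). In the alpha ring Psma1 (197 ± 13.3) and Psma6 (190 ± 5.11) stood side by side within their spread. Psma4 (81.4 ± 5.00) and Psma2 (75.4 ± 6.14) did too, with Psma5 (45.3 ± 6.37) below them. In the beta ring Psmb1 (195 ± 19.9) and Psmb2 (169 ± 14.4) followed Psmb6, then Psmb4 (137 ± 8.20), Psmb3 (95.6 ± 2.62) and Psmb5 (70.5 ± 6.83). The ATPases were the most even, from 52.6 ± 2.75 for Psmc1 to 132 ± 10.5 for Psmc4 (2.52). In the non-ATPase group Psmd4 (168 ± 36.4) was highest and the chaperone Psmd9 (15.1 ± 1.39) lowest. Spearman's rho between the adult and infant order of per-length levels was 1, 0.964, 1 and 0.996 over the 7, 7, 6 and 14 genes of these classes, as a description of genes within the same libraries. The levels, ratios and order within a class depend on the transcript length used. Psma1 has 1201 bases in its principal transcript and 2952 in all exons, while Psma6 has 1042 and 1234. Of the tested members 10 (Psma3, Psma4, Psma5, Psmb3, Psmb5, Psmc1, Psmd2, Psmd9, Psme2 and Psme2b) share over 20% of their 25-base words with other annotated transcripts, so their levels are less certain. Another gene overlaps over 10% of the exon bases of 5 tested members (Psmb5, Psmb7, Psmc3ip, Psmd9 and Psmd13), and since the libraries do not mark strand, reads of the partners cannot be told apart. The genes are scattered over the genome, with 10 of 45 tested members on chromosome 11, which holds 8.17% of the tested genes with a known position.

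Of 34 other genes of the pathway, 0 passed in edgeR, 16 lay above and 18 below 0 (median −0.021), and 6 had an unadjusted p under 0.05. Over all tested genes 3.64% passed, 49.7% lay above 0 and 17.3% had such a p. Ubb and Rps27a, both of which encode ubiquitin, lay on opposite sides of 0. Ubb, which encodes ubiquitin as a chain of repeats, stood at 313, 243 and 303 CPM in adults and at 328, 320 and 379 CPM in infants (log2 fold change 0.26 ± 0.12, adjusted p = 0.288), without overlap. Rps27a, which encodes it fused to a ribosomal protein, had 435, 432 and 440 against 349, 365 and 351 CPM, without overlap (−0.29 ± 0.095, adjusted p = 0.111, but 0.0431 with DESeq2). Uba1, the main ubiquitin-activating enzyme, was at 0.16 ± 0.10. Of the factors that control proteasome genes, Nfe2l2 stood at 160, 118 and 161 CPM in adults and at 103, 112 and 129 CPM in infants (−0.35 ± 0.14, adjusted p = 0.219) and Nfe2l1 had 72.0, 54.5 and 51.5 against 39.6, 43.5 and 60.6 (−0.31 ± 0.19, adjusted p = 0.462). The groups of both overlapped. Ngly1, the glycanase that activates Nfe2l1, was at 0.27 ± 0.12 (adjusted p = 0.262) with infant values all above the adult ones. Pomp, the maturation factor of the barrel, and Adrm1, a ubiquitin receptor of the cap, were at 0.092 ± 0.13 and −0.30 ± 0.17. Nfe2l1, Nfe2l2, Pomp and Adrm1 were named after their values were seen.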

How the data were processed

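For 6 libraries the authors deposited whole-number counts by gene symbol. The submitters' processing notes name STAR 2.5.4, featureCounts and mm10. The annotation, the strand setting and the treatment of reads with several matches were details not given in the sources used here. Per the labels' protocols, cDNA made from an oligo(dT) primer was amplified, fragmented with a transposase (Nextera XT, which does not mark strand) and sequenced in paired reads of 25 bases, without molecular identifiers.

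The test was the quasi-likelihood F test of edgeR 4.0.16 (R 4.3.3; infant over adult, no covariate) after filterByExpr (minimum count 10, minimum total 15), with TMM factors and Benjamini-Hochberg adjustment over 11681 genes at 0.05. The SE equals the size of the log2 fold change over the root of its F statistic. Library sizes for CPM were the sums over tested genes multiplied by TMM factors. Floors of 3 counts were 0.628 to 0.852 CPM and cover counting error only. Alternatives were DESeq2 1.42.0, limma-voom (limma 3.58.1), other scalings and filters, a replicate block and leaving out each library. Replicates of a group differed by more than sampling noise (chi-square over its degrees of freedom 5.45 or more). That each replicate is 1 mouse rests on the labels, not on this value.

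Positions and lengths came from GENCODE M21 (the same build), with 93.3% of symbols matched. Members and lists were chosen with earlier results of these data known. Every member is named. Values per library are given for the active subunits, the activators and up to 3 members of smallest p in each class, and, of the pathway list, the immunoproteasome genes and the 4 of highest level are named. Some genes of the marker and pathway lists are not reported here.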

Additional observations from a re-analysis of the deposited data

How the results depend on the processing

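The count of proteasome genes called was 0 of 45 in every alternative except without a filter on low counts, where Psme3 was called, which gives a count of 1 (log2 fold change 0.73, edgeR adjusted p = 0.0411). That setting tested 39470 genes, whose median log2 fold change was −0.84. Over all alternatives for Psme3 the adjusted p ran from 0.0411 to 0.415. The number of members above 0 was 33 to 38 of 45 and their median 0.11 to 0.16 in the other alternatives. Without the filter 38 of 51 lay above 0, with a median of 0.17. The count over all genes was 326 with the replicate block and 622 with DESeq2. It was 139 to 488 with 1 library left out: 185, 488 and 208 without adult replicates 1, 2 and 3, and 176, 139 and 189 without infant replicates 1, 2 and 3. With the replicate block, 0 members were called and their median was 0.13. Over all tested genes the deviations of same-numbered libraries from their group means had correlations of −0.057, −0.0072 and −0.10. Over the 45 members these correlations were −0.53, 0.11 and −0.57, and over the members without Psmd3 they were −0.28, 0.054 and −0.21. Whether same-numbered libraries share more than the number was not tested.

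No member changed direction under the other scalings, filters and tests. With 1 library left out, 9 members did. Their log2 fold changes ran from −0.013 to 0.097 (Psma2), −0.013 to 0.11 (Psma7), −0.22 to 0.67 (Psmd3), −0.20 to 0.11 (Psmd5), −0.043 to 0.13 (Psme2), −0.012 to 0.17 (Psmg1), −0.029 to 0.27 (Psmg2), −0.29 to 0.057 (Psmg3) and −0.19 to 0.095 (Psmg4). Of the other pathway genes Psmb8 (−0.0073 to 0.063), Psmb10 (−0.098 to 0.0091) and Pomp (−0.0090 to 0.16) did so too.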
